A study of Bos taurus with 30 samples.

Results

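Pregnancy-associated glycoproteins (PAGs) are secreted members of the aspartic proteinase family made by the trophoblast of ruminants and other even-toed ungulates. Many of them are thought to lack enzyme activity because of changes around the catalytic site. In cattle the family is divided into an ancient class, made broadly across the trophoblast, and a modern class, made mainly by the binucleate cells that form as the placenta attaches. Modern members released into the blood of the cow are the antigens of common pregnancy tests. The 6 genes followed here were taken by their gene symbols, PAG1 of the modern class, and PAG2, PAG8, PAG10, PAG11 and PAG12 of the ancient class. They were 6 of 35092 genes in the count table, and a further 14 genes of the table carried a PAG symbol.

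The libraries came from bovine embryos on day 15, before attachment to the uterus, when the embryo is an elongating sheet of trophoblast and hypoblast around a small disc. Each embryo had been cut into the embryonic disc (ED), from which the body of the calf forms, and pieces of the surrounding extra-embryonic membranes (EEM). In vitro produced (IVP) embryos came from Holstein oocytes matured, fertilized and cultured without serum, and were transferred to synchronized recipient cows on day 7. In vivo (IVV) embryos were conceived by insemination of superovulated Holstein cows, and the same Holstein bull sired both groups. There were 7 IVP and 9 IVV libraries of the ED, and 6 IVP and 8 IVV libraries of the EEM, from 17 embryos. Both tissues were available for 13 embryos, 5 IVP and 8 IVV. Embryos of a group shared very few recipients or donors, and which cow carried which embryo was not given, so litter and group cannot be told apart. Embryos without a visible disc had been discarded, and IVP embryos were shorter than IVV embryos at recovery, so production in vitro and stage of elongation cannot be told apart either.

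Totals per library ran from 48713218 to 63037371 counts, so that 3 counts, taken as the floor of detection in a library, equalled 0.0441 to 0.0688 counts per 1000000 (CPM, scaled by the trimmed mean of M values, TMM). Entries of 2 (19289) outnumbered entries of 1 (15257) in the count table, so both reads of a pair may have been counted. In that case 3 counts stand for fewer than 3 RNA fragments. The tissue labels were checked with marker genes. The disc markers NANOG, POU5F1 and EOMES were lower in the EEM, with log2 fold changes of -8.56, -5.40 and -10.39. NANOG and EOMES had group medians of at most 1 count in the EEM, so the sizes of their fold changes are uncertain. SOX2 was listed at 0 in all 30 libraries and could check nothing. The summed level of 18 trophoblast genes was high in both tissues, at 13470 to 73820 CPM in IVP and 31510 to 49620 CPM in IVV discs against 36190 to 73980 CPM and 35450 to 61890 CPM in the corresponding EEM. Within embryos the sum was higher in the EEM in 11 of 13, with medians of 39030 CPM in the ED and 54000 CPM in the EEM and a median ratio of 1.15. All ED libraries therefore also held RNA of trophoblast genes. Since each library is a piece of mixed tissue, fewer cells of a type and less RNA per cell cannot be told apart. The disc of the IVP embryo IVPF10 had the lowest trophoblast sum, 13470 CPM, and no EEM library of it was available. A list of 18 trophoblast transcription factors summed to 1388 CPM in this disc, which was the median of the IVP discs.

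The gene symbol PAG1 needed care. In the RefSeq table the symbol belongs to a gene on chromosome 14 (Entrez 614460) for a membrane adaptor protein, unrelated to the glycoproteins, and this gene was at 0.974 to 5.94 CPM in all libraries. The glycoprotein PAG1 is Entrez 281964, on chromosome 29 with the other PAG genes, where it is listed without its symbol. All values for PAG1 are those of the glycoprotein gene.

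PAG11, PAG2, PAG8 and PAG12 were detected in every group, whereas PAG1 and PAG10 were at or near the floor. The difference followed no clean line between the classes, since PAG10 is an ancient member. Levels were not compared between genes, because transcript lengths were not used here and CPM is not set per length.

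PAG11 (Entrez 337907) took the most counts of the family. In the ED its lowest, median and highest levels were 1463, 7058 and 12000 CPM in IVP embryos and 5143, 5836 and 8668 CPM in IVV embryos. In the EEM they were 3290, 6369 and 21140 CPM in IVP and 5213, 11730 and 15310 CPM in IVV embryos. The IVP values enclosed all the IVV values in both tissues. As means, these were 7174 ± 3487 (SD, n = 7), 6239 ± 1195 (SD, n = 9), 9837 ± 7670 (SD, n = 6) and 11430 ± 3281 CPM (SD, n = 8), in the same order.

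PAG2 (Entrez 337897), an ancient member, was between 207.3 and 1976 CPM in IVP discs (median 1337 CPM) and between 326.9 and 2140 CPM in IVV discs (median 697.9 CPM). The EEM held 270.9 to 3340 CPM in IVP (median 1346 CPM) and 386.7 to 2146 CPM in IVV embryos (median 1177 CPM). These groups overlapped throughout, although 8 of the 9 IVV discs had no more than 836 CPM and 6 of the 7 IVP discs had at least 934.2 CPM. The exceptions were the IVV disc VE4, at 2140 CPM, and the IVP disc IVPF10, at 207.3 CPM.

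PAG8 (Entrez 337902), is a further ancient member. Its lowest, median and highest levels were 92.34, 165.9 and 308.8 CPM in IVP discs and 91.52, 167.4 and 360.6 CPM in IVV discs. The EEM values were 110.6, 146.5 and 368.5 CPM in IVP and 139.7, 206.2 and 392 CPM in IVV embryos. All 4 groups overlapped, with no group wholly above or below another.

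PAG12 (Entrez 337906) was detected at a low level. In discs it ran from 2.98 through a median of 20.8 to 62.1 CPM in IVP and from 0.621 through 22.9 to 96.0 CPM in IVV embryos. In the EEM it ran from 0.932 through 7.54 to 22.4 CPM in IVP and from 0.0637 through 6.34 to 22.2 CPM in IVV embryos. Both tissues therefore overlapped when taken as groups, but the medians in the EEM were lower than those in the ED. The embryo VE19 stood apart, with the lowest PAG12 of its group in both tissues, 31 counts in the disc and 3 counts, the floor, in the EEM.

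PAG10 (Entrez 337904), the remaining ancient member, had at most 16 counts in any library, in the disc of VE4. Its median counts were 5 in IVP discs, 1 in IVV discs, 1.5 in IVP and 2 in IVV EEM. Counts above the floor were seen in 4 of 7, 3 of 9, 2 of 6 and 1 of 8 libraries, respectively. PAG1 (Entrez 281964) had 0 or 1 count in 29 libraries and 8 counts in the disc of VE19. Neither gene passed the filter on low counts, and no fold change is given for either. At this depth a level under the floor was not detectable, and counting error is all that this limit covers.

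**Figure D1:**
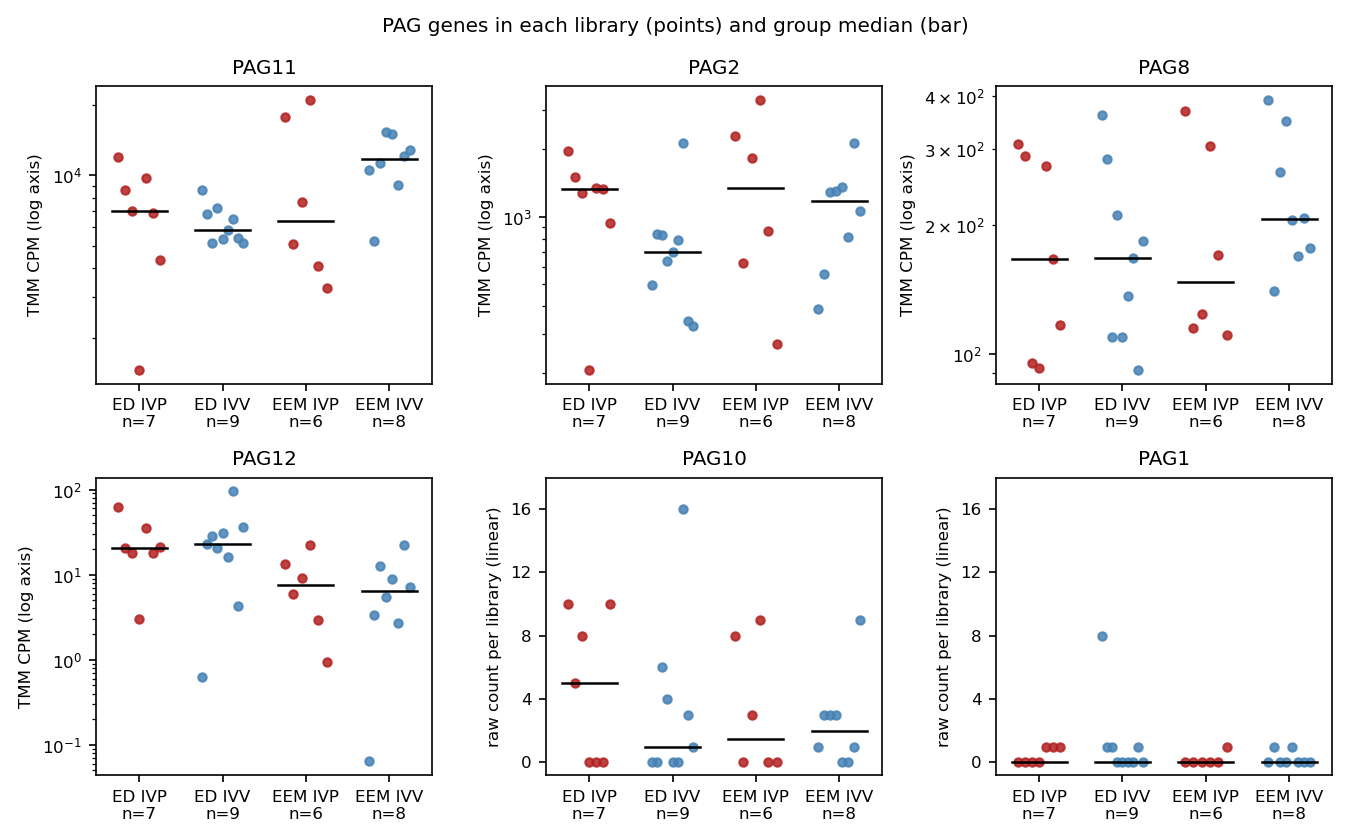
Each point is a library and each bar a group median, for IVP (red) and IVV (blue) ED and EEM; PAG11, PAG2, PAG8 and PAG12 are in TMM-scaled CPM on a log axis, PAG10 and PAG1 in raw counts on a linear axis. PAG11, PAG2, PAG8 and PAG12 overlap between IVP and IVV in both tissues, PAG12 medians are lower in the EEM, and PAG1 stays at 0 or 1 count but for 8 in the disc of VE19.

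The PAG genes lie together on chromosome 29. In the gene order of the RefSeq assembly ARS-UCD2.0, the counted loci from PAG10 to PAG8 numbered 60, of which 20 were PAG genes and 40 had no PAG symbol. PAG10, PAG2 and PAG12 are next to each other at one end, PAG11 and PAG8 lie toward the other end, and PAG1 and the other modern members lie between them. Of all counts in the cluster, 86.3% were in PAG11, 11.4% in PAG2, 2.06% in PAG8 and 0.198% in PAG12. PAG10, beside PAG2 and PAG12 in the order, took 0.000656%, and PAG1 took 0.000108%. Thus neighbouring genes differed by several orders of magnitude in their share of counts. The 14 other PAG genes took 0.0117% together, and the loci without a PAG symbol 0.0318%. PAG2, PAG8, PAG11 and PAG12 made up between 0.187% and 2.05% of a whole library, the first in the disc of IVPF10 and the second in the EEM of IVPF13.

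Of the other PAG genes, all modern, only PAG7 (Entrez 337901) passed the filter. It had 13 to 114 counts in all 30 libraries, and its mean level in the EEM was 0.773 ± 0.573 CPM (SD, n = 6) for IVP embryos and 0.976 ± 0.444 CPM (SD, n = 8) for IVV embryos. The next genes by mean in the EEM were PAG6, PAG21, PAG4 and PAG17, with at most 16, 34, 6 and 3 counts in any library. PAG15 and PAG19 were listed at 0 in all libraries. PAG7 was thus the only modern member counted in every library. A list of 12 genes of the binucleate cell, the placental cell type in which modern members are known to be made, was at the floor in part. For 9 of them, CSH2 (the placental lactogen) and 8 genes of prolactin-related proteins, no library exceeded 2 counts. GCM1 had at most 11 counts. CYP11A1 and CYP17A1, enzymes of steroid synthesis that other cells also make, were above the floor in 30 and 27 of 30 libraries, and CYP11A1 gave most of the sum of the list.

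PAG genes are close copies of each other, and how reads that match several copies were handled was not given, so small counts in a member cannot be told apart from reads of an abundant copy. Libraries were not stranded, and antisense reads could not be told apart either.

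**Figure D2:**
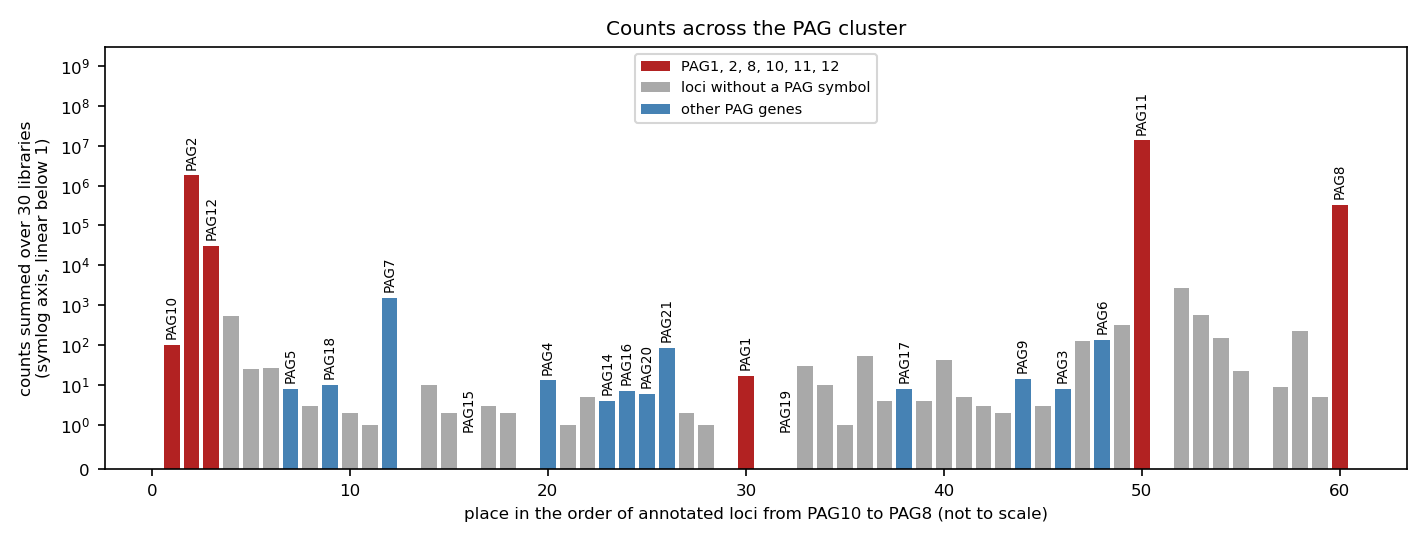
Counts summed over 30 libraries (symlog axis, linear below 1) for each of 60 annotated loci in their order along chromosome 29, with the 6 followed genes in red, other PAG genes in blue and loci without a PAG symbol in grey. PAG11, PAG2, PAG8 and PAG12, in falling order, rise above all other loci, while PAG10 and PAG1, in the same cluster, do not.

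The design allows the tissues to be compared within embryos. Over the 13 embryos with both tissues, edgeR's quasi-likelihood test with the embryo as a block called 21.0% of 14898 genes different between EEM and ED at an adjusted p under 0.05, and 12.8% lower in the EEM. Of the 4 PAG genes tested, 1 was called, PAG12, which was lower in the EEM. This count, 1 gene of 4, is near the share called among all genes. PAG11, PAG2 and PAG8 had estimates on the other side of 0 and were not called.

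PAG12 fell from the ED to the EEM in 12 of 13 embryos. In IVP embryos the levels in ED and EEM were 62.1 and 13.2 CPM in IVP10, 20.8 and 5.93 CPM in IVP11, 17.9 and 9.14 CPM in IVP14, 35.3 and 22.4 CPM in IVPF13, and 17.8 and 2.93 CPM in IVPF14. In IVV embryos they were 22.9 and 3.33 CPM in VE24, 28.8 and 12.6 CPM in VE26, 20.7 and 5.51 CPM in VE28, and 30.7 and 8.94 CPM in VE29. They were 15.96 and 2.701 CPM in VE3, 96.0 and 22.2 CPM in VE4, 4.31 and 7.17 CPM in VE5, and 0.621 and 0.0637 CPM in VE19. Only VE5 had more PAG12 in the EEM than in the ED, and its disc was the second lowest of the IVV discs. The level in the ED was 3.76-fold that in the EEM at the median. Apart from VE5, the ratio ran from 1.57-fold in IVPF13 to 6.88-fold in VE24 and 9.76-fold in VE19, where it rested on 3 counts in the EEM and its 95% counting interval (exact binomial) was 3.04 to 49.9. This interval takes each count as a separate fragment and is too narrow if both reads of a pair were counted. The log2 fold change was -1.74 (standard error 0.239, 95% interval -2.24 to -1.24, adjusted p = 1.74e-05 from edgeR).

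PAG11 was higher in the EEM in 10 of 13 embryos, and the fitted difference was 0.50 on the log2 scale (standard error 0.189, 95% interval 0.11 to 0.90, adjusted p = 0.0657 from edgeR). This missed the threshold. The embryos with less PAG11 in the EEM were IVP11, IVPF14 and VE24, at 0.585, 0.590 and 0.763 of their own ED levels, and the largest ratio was 2.81 in VE29. Without any one of these 3 embryos, which had the opposite direction, PAG11 passed the threshold, at adjusted p = 0.0164, 0.0207 and 0.0361, and with DESeq2 in place of edgeR the adjusted p was 0.0259. Leaving out each of the 13 embryos in turn gave adjusted p of 0.0164 to 0.139 from edgeR, and only those 3 omissions passed. PAG2 and PAG8 were higher in the EEM in 9 and 11 of 13 embryos. Their log2 fold changes, 0.25 (95% interval -0.17 to 0.68, adjusted p = 0.393) and 0.23 (95% interval -0.14 to 0.60, adjusted p = 0.371), did not pass. The same 2 embryos, IVP11 and VE24, were those in which PAG8 was lower in the EEM.

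Within the 8 IVV embryos, where 21.3% of all genes tested were called, PAG12 was lower in the EEM, at -1.85 on the log2 scale (standard error 0.312, adjusted p = 0.000613). PAG11 was higher by 0.73 (standard error 0.178, adjusted p = 0.00935), and in 7 of 8 embryos. Within the 5 IVP embryos, where 3.28% of genes were called, PAG12 was again lower, in 5 of 5, at -1.67 (standard error 0.286, adjusted p = 0.00664). PAG11 had an estimate of 0.03 (95% interval -0.63 to 0.70, adjusted p = 0.984) in these embryos. The test of the difference between procedures, which called 1.02% of genes, called none of the 4 PAG genes. For PAG11 the difference was -0.71 (95% interval -1.44 to 0.02, adjusted p = 0.505), so a different tissue contrast in IVP and IVV embryos was not shown. For PAG12 it was 0.18 (95% interval -0.82 to 1.18, adjusted p = 0.974), for PAG2 -0.35 (-1.20 to 0.51, adjusted p = 0.897) and for PAG8 -0.50 (-1.21 to 0.20, adjusted p = 0.707). None of the 4 had an unadjusted p under 0.05 in this test, and DESeq2 called 0 of them.

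**Figure D3:**
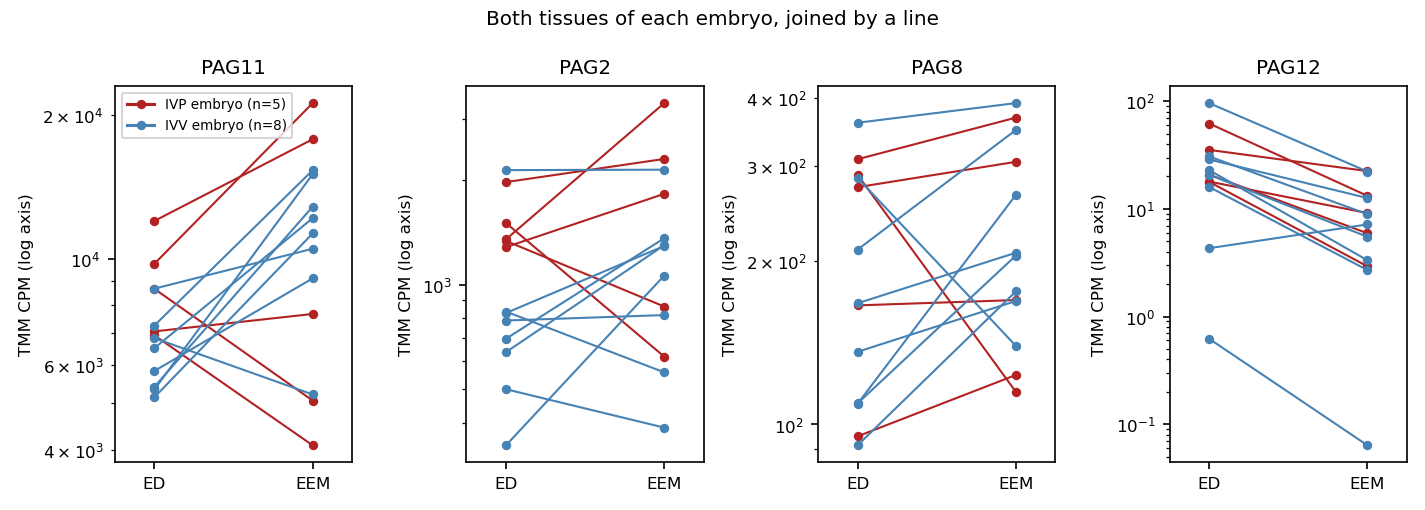
TMM-scaled CPM on log axes in the ED and EEM of each of 13 embryos, joined by a line (red, 5 IVP; blue, 8 IVV). PAG12 falls toward the EEM in 12 embryos, and PAG11 rises in 10.

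The libraries of both tissues held much trophoblast RNA, so PAG12 was also set against the other PAG genes of its own library, a scale chosen after the data were seen. Relative to the summed counts of PAG2, PAG8 and PAG11, PAG12 was lower in the EEM in 13 of 13 embryos, VE5 included. The mean log2 ratio of EEM to ED was -2.26 ± 0.941 (SD, n = 13), with a range of -3.53 to -0.54. Without VE19 the mean was -2.15 ± 0.898 (SD, n = 12), with PAG12 lower in 12 of 12 embryos. PAG12 was examined in this way because it had been called lower in the EEM, and most of the summed counts were those of PAG11, which was higher there in 10 embryos, so these values restate the same data on another scale and add no independent evidence.

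For context, other lists of genes were compared between the tissues in the same fit. Of 16 tested trophoblast genes, 6 were higher and 1 lower in the EEM, with a median log2 fold change of 0.292, against 0.0847 over all genes tested, of which 8.16% were higher. KRT18, a keratin, rose by 0.44, ASCL2 by 0.72 and the interferon tau gene IFNT2 by 0.78. The lower one was TKDP4, of the trophoblast Kunitz domain proteins, at -2.35 (adjusted p = 2.27e-06 from edgeR). Of 16 tested transcription factors of the trophoblast, 4 were higher and 1 lower in the EEM, with a median of 0.183. This list shares 7 tested genes with the one before, and 3 of its 4 higher genes were counted there too. ETS2, a factor known to act on trophoblast promoters, was higher by 0.41 and TFAP2C by 0.34, whereas HAND1 was lower, at -2.39 (adjusted p = 9.09e-05). PPARG of this list was listed at 0 in all libraries. PAG12 therefore had the direction of TKDP4 and HAND1 and not that of the interferon tau genes. The hypoblast list had 7 of 10 tested genes lower in the EEM and none higher (median -0.632), among them TF (-7.32), HNF4A (-0.77), APOB (-3.77) and PDGFRA (-0.81). TF and APOB had group medians of at most 7 counts in the EEM, so the sizes of their fold changes are uncertain. The summed level of the hypoblast list nevertheless was higher in the EEM in 9 of 13 embryos, with medians of 1164 CPM in the ED and 1200 CPM in the EEM. Most of this sum was the single gene APOA1 (group means of 760.7 to 1336 CPM), which had 0.45 (adjusted p = 0.0686 from edgeR). The disc list had 7 of 8 genes lower (median -3.53), with PRDM14 at -6.03 (median counts of 3.5 in IVP and 1.5 in IVV EEM) beside the 3 genes given above. Whether cells of the disc or hypoblast had a part in the PAG12 difference was not tested.

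Of 3 tested aspartic proteinases outside the PAG family, BACE2 (-3.62) and BACE1 (-0.68) were lower in the EEM (median -0.685). BACE2 had median counts of only 9.5 in IVP and 4 in IVV EEM, so it was tested through its level in the ED. CTSD, the lysosomal cathepsin D, had -0.15 (adjusted p = 0.385). PAG7, the other PAG gene tested, had -0.20 (adjusted p = 0.554). Of the binucleate cell list 2 of 12 genes were tested, and CYP11A1, which starts steroid synthesis, was higher in the EEM by 0.61 (adjusted p = 0.00274). Within the cluster, LOC528815, which has no PAG symbol and lies between PAG11 and PAG8, was higher in the EEM by 1.18 (standard error 0.264, adjusted p = 0.00278), a locus singled out after its value was seen.

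IVP and IVV embryos were then compared within each tissue, the question of the study being what in vitro procedures do to the day 15 embryo. No PAG gene was called different in either tissue. In the EEM, where the same test with 1 surrogate variable called 3.81% of 14718 genes, 0 of 4 tested PAG genes were called. In the ED, 6.34% of 15733 genes and 0 of 4 PAG genes were called. None of them had an unadjusted p under 0.05 from edgeR in either tissue, and DESeq2 called 0 in both.

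In the ED, PAG2 had the largest estimate, a log2 fold change (IVP minus IVV) of 0.60 (standard error 0.362, 95% interval -0.15 to 1.35, adjusted p = 0.424). Its mean levels were 1228 ± 546.9 CPM (SD, n = 7) for the IVP discs and 788.7 ± 542.7 CPM (SD, n = 9) for the IVV discs. The estimates for PAG8 and PAG11 were 0.11 (-0.40 to 0.62, adjusted p = 0.894) and 0.20 (-0.31 to 0.71, adjusted p = 0.771). PAG12 had -0.14, with a wide interval of -1.37 to 1.10 (adjusted p = 0.950). It was -0.54 to 0.31 with single embryos left out and 1.23, past that interval, with XIST as a covariate, none of them called. The intervals, widest for PAG12, include a change of 0.60 in the positive direction for all 4 genes, so the absence of a call does not show that the groups are alike. Without VE4, the IVV disc high in PAG2, the PAG2 difference was 0.96 (adjusted p = 0.0576), and without the IVP disc IVPF10 it was 0.81 (adjusted p = 0.153). In the same comparison, where 4.95% of all genes were lower in IVP, 5 of 9 tested disc genes were lower, MIXL1 (-2.21), PRDM14 (-1.95), POU5F1 (-1.72) and TBXT (-3.92) among them. Of the trophoblast factors 1 of 16 tested was lower, MSX2 (-1.20, adjusted p = 0.0019), and of the trophoblast genes 1 of 17, TKDP4 (-1.41, adjusted p = 0.0291), with none higher in either list. The medians of these lists were 0.134 and 0.201, against -0.00784 over all genes tested. HAND1 had -1.43 (adjusted p = 0.0614). PAG12, which had the direction of TKDP4 and HAND1 between the tissues, was not called with TKDP4 here. The disc of IVPF10, with the lowest trophoblast sum, also had the lowest PAG11, PAG2, PAG8 and PAG12 of the IVP discs. Its sum of trophoblast transcription factors, 1388 CPM, was however the median of the IVP discs.

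In the EEM, the log2 fold changes were 0.45 for PAG2 (standard error 0.408, 95% interval -0.39 to 1.29, adjusted p = 0.801) and 0.39 for PAG12 (standard error 0.607, -0.86 to 1.64, adjusted p = 0.952). Without the library of IVPF13 they were -0.03 and -0.27, and with XIST as a covariate 1.19 and 1.69, none of them called. PAG8 had -0.15 (-0.71 to 0.42, adjusted p = 0.970) and PAG11 -0.20 (-0.95 to 0.54, adjusted p = 0.967). With single embryos left out these ran from -0.43 to 0.03 and from -0.57 to -0.03, and with XIST they were 0.16 and 0.01, none of them called. PAG11 was spread more widely in the IVP than in the IVV embryos of this tissue. IVP10 and IVPF13 had the highest PAG11 of all EEM libraries, 17770 and 21140 CPM, and IVPF9, IVPF14 and IVP11 the lowest, 3290, 4083 and 5063 CPM. IVPF9 was also the lowest IVP library for PAG2, PAG8 and PAG12. Of the trophoblast list and of the trophoblast factors, none of 16 genes each was called in the EEM. PAG7 had -0.34 in the EEM (adjusted p = 0.901) and -0.45 in the ED (adjusted p = 0.656).

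**Figure D4:**
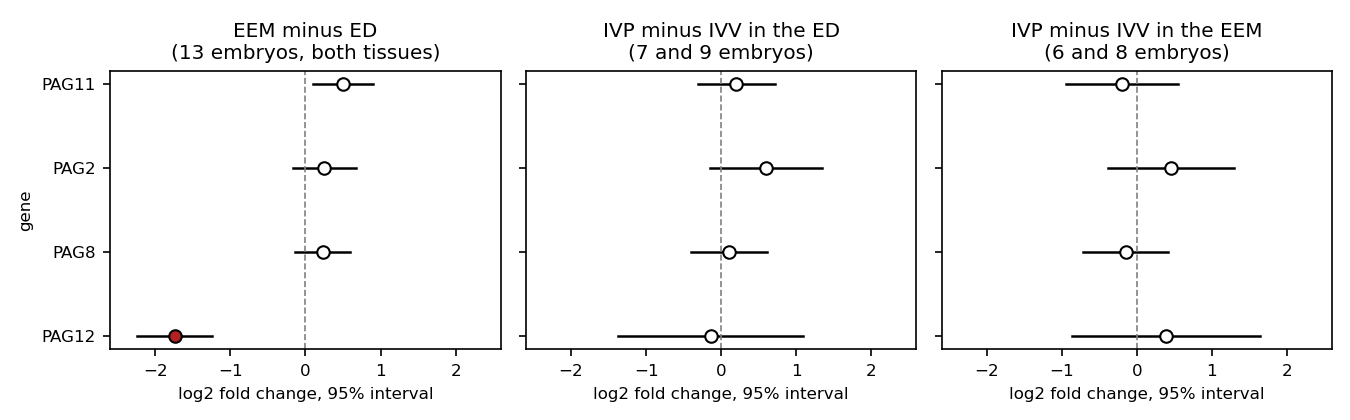
Log2 fold changes with 95% intervals from edgeR for PAG11, PAG2, PAG8 and PAG12; a filled point passed an adjusted p of 0.05. PAG12 between the tissues (-1.74) is the one filled point, and every interval between IVP and IVV includes 0.

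The PAG genes did not vary as one across the 14 EEM libraries. After the mean of each group was subtracted, Pearson's r of log2 CPM was 0.823 between PAG2 and PAG11, 0.751 between PAG8 and PAG11 and 0.83 between PAG2 and PAG12. It was 0.506 between PAG11 and PAG12, 0.452 between PAG2 and PAG8 and 0.0203 between PAG8 and PAG12. VE19, low in PAG12 and PAG2 and highest in PAG8, lowered all of these, and without it they were 0.887, 0.827, 0.918, 0.798, 0.720 and 0.589, in the order given. These are descriptions over libraries of mixed tissue, which share their scaling.

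The genes most like PAG2 among all genes tested were IFN-tau-c1 (r = 0.935) and IFNT2 (r = 0.925), genes of interferon tau, the signal by which the ruminant embryo announces itself to the mother, and PDLIM2 (r = 0.930). Those most like PAG11 were IFNT3 (r = 0.934), TKDP1 (r = 0.931) and B3GAT1 (r = 0.922). PAG8 was most like CBR3 (r = 0.937), LOC107131525 (r = 0.934) and THPO (r = 0.914), all with means near 1 CPM or below it. PAG12 was most like DHRS9 (r = 0.959), TKDP4 (r = 0.933) and HAND1 (r = 0.912).

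For PAG12 the likeness to HAND1, and less so to TKDP4, depended on VE19, whose EEM held 0.106 CPM of HAND1 and 9.43 CPM of TKDP4, the lowest of the 14 libraries for both. Without VE19, r was 0.905 for DHRS9, 0.856 for TKDP4 and 0.744 for HAND1, and among all genes tested they ranked 4, 12 and 50. The genes most like PAG12 over the other 13 libraries were COL5A1 (r = 0.919), PAG2 itself (r = 0.918) and the interferon tau gene IFNT2 (r = 0.912), the last also among the 3 genes most like PAG2 over all 14 libraries. For PAG2 and PAG11 the values without VE19 stayed between 0.917 and 0.968, and IFN-tau-c1, CBR3 and TKDP1 were then the genes most like PAG2, PAG8 and PAG11. DHRS9, TKDP4 and HAND1 were also lower in the EEM than in the ED, DHRS9 with a log2 fold change of -0.997 (adjusted p = 0.00266). The interferon tau genes most like PAG2 and PAG11 were higher there, by 0.48 for IFN-tau-c1 (adjusted p = 0.0437), 0.78 for IFNT2 (adjusted p = 0.0140) and 0.58 for IFNT3 (adjusted p = 0.0194). TKDP1 had 0.18 (adjusted p = 0.504).

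**Figure D5:**
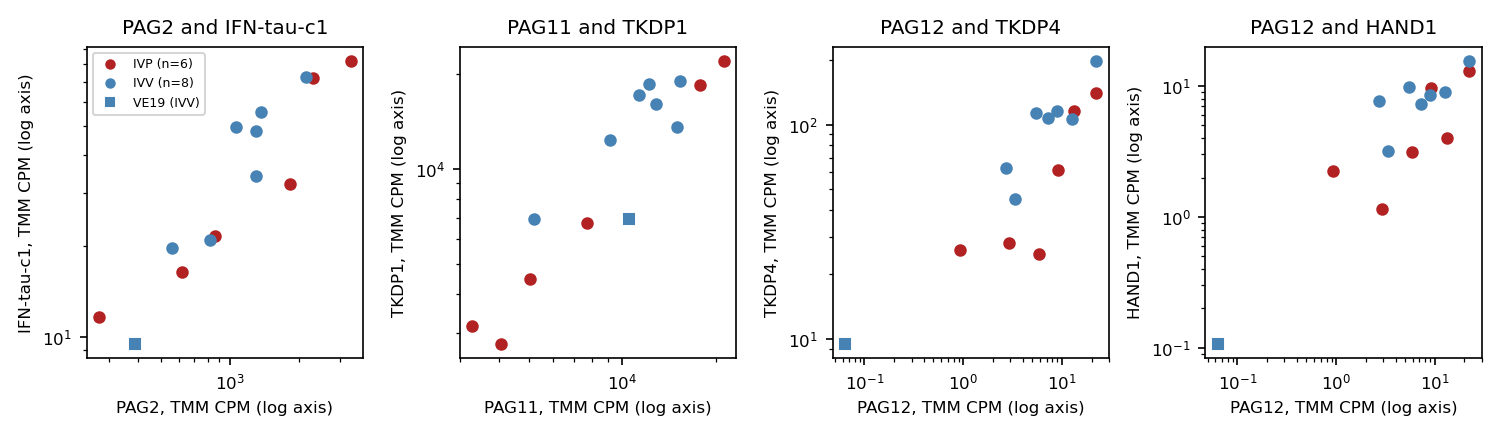
Levels in the 14 EEM libraries (TMM-scaled CPM, log axes; red, 6 IVP; blue, 8 IVV; the square is VE19) of PAG2 with IFN-tau-c1, PAG11 with TKDP1, and PAG12 with TKDP4 and with HAND1. VE19 is far to the lower left in both PAG12 panels and apart from the other libraries in the PAG11 panel.

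RNA of the mother was looked for with 2 lists. The summed level of 9 blood genes was at most 45.97 CPM and that of 9 uterine genes at most 21.37 CPM in any library. The hemoglobin genes HBB and HBA had at most 4 and 21 counts in any library. Between the tissues 1 of 3 tested blood genes, ALAS2, was lower in the EEM (-2.41), while CD14 (-0.40) and CD68 (0.30) were not called. The blood sum was lower in the EEM in 13 of 13 embryos, with medians of 19.84 CPM in the ED and 9.52 CPM in the EEM, and its part in the PAG12 difference was not tested. Of the uterine genes, 0 of 4 tested were called by edgeR. None of the tested genes of either list was called between IVP and IVV embryos.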

How the data were processed

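RNA was measured by polyA-selected, unstranded, paired-end sequencing of ED and EEM pieces. The study's methods give read filtering with SOAPnuke, alignment to ARS-UCD1.3 with STAR 2.7.0b and gene counts from featureCounts (Subread 2.0.3). The labels also name Trimmomatic for trimming and FastQC 0.11.9 for quality checks. The deposited values are raw counts for 35092 Entrez genes in 30 libraries. The handling of reads that match several PAG copies was not given, and could move counts between copies.

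Counts were TMM-scaled and tested with edgeR 4.0.16 (quasi-likelihood, R 4.3.3) after filterByExpr (minimum count 10), with Benjamini-Hochberg adjustment over all genes tested and a threshold of 0.05. IVP and IVV were compared within each tissue with 1 surrogate variable (sva 3.50.0). Tissues were compared in the 13 embryos with both, with the embryo as block, and the difference between procedures as an interaction. The pairing comes from the embryo named in the titles. The deviations of an embryo's 2 libraries from their group means correlated at 0.302 to 0.705 in 12 embryos and at -0.244 in IVPF13. Log2 CPM used a prior count of 2. The method was tested on simulated data. Alternatives included DESeq2 1.42.0, no filter, no block, further covariates, counts divided by 2 and rounded, and leaving out each embryo.

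The members and gene lists were chosen with earlier results of these data known. Named were the 6 members, the 5 other PAG genes with the highest mean in the EEM, up to 4 called genes of the lists described, by smallest p, and the 3 genes with the highest r per member. Names came from RefSeq (ARS-UCD2.0, used for names and gene order only), which gave 31630 genes a symbol. Embryos were the replicates.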

Additional observations from a re-analysis of the deposited data

Results flagged for a closer look

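Libraries far from the rest of their group were looked for in PAG2, PAG8, PAG11 and PAG12 with Dixon's criterion on log2 CPM, and 4 were found in 16 sets of libraries, where chance gives about 1 in 20. The sets are not independent, since the genes were measured in the same libraries, and the disc IVPF10 was found for both PAG2 and PAG12. The number found can therefore not be set against that rate. In the IVP discs, IVPF10 had 207.3 CPM of PAG2, with the nearest library at 934.2 CPM, and 2.98 CPM of PAG12, with the nearest at 17.8 CPM. This disc had the lowest trophoblast sum, 13470 CPM, but the median sum of trophoblast transcription factors among the IVP discs, 1388 CPM. The part of these in both values was not tested. In the IVV discs, VE4 had 2140 CPM of PAG2, against 836 CPM in the nearest library. In the IVV EEM, VE19 had 0.0637 CPM of PAG12, or 3 counts, against 2.701 CPM in the nearest library.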

How the results depend on the processing

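PAG12 was lower in the EEM than in the ED in all 20 alternatives run, from -1.93 to -1.65 on the log2 scale, with adjusted p of at most 0.0139. The number of PAG genes called in that comparison, 1, became 2 (with PAG11) under DESeq2, without the low-count filter (PAG11 adjusted p = 0.0368) and in IVV embryos alone, and ran from 1 to 2 when embryos were left out (2 without IVP11, IVPF14 or VE24). In the paired design, dropping the replicate block left 1 PAG gene called, while the genes called over all fell from 3124 to 1553. No alternative called a PAG gene between IVP and IVV, and the sign of PAG2 in the ED was positive in every alternative, while those of PAG8, PAG11 and PAG12 changed in both tissues, as did that of PAG2 in the EEM. With XIST as a covariate those in the EEM became 0.16 for PAG8 and 0.01 for PAG11, and that of PAG12 in the ED 1.23. The same covariate moved PAG2 from 0.45 to 1.19 and PAG12 from 0.39 to 1.69 in the EEM, the latter past the upper end of its 95% interval, 1.64, and PAG2 from 0.60 to 1.05 in the ED, none of them called. With the title letter as a term PAG12 was 1.01 in the EEM and 0.05 in the ED, and it was 0.50 in the ED of embryos with both tissues. Leaving out single embryos gave -0.43 to 0.03 for PAG8, -0.03 to 0.69 for PAG2 and -0.27 to 0.71 for PAG12 in the EEM, where PAG11 kept its sign (-0.57 to -0.03), and -0.13 to 0.24 for PAG8, -0.02 to 0.35 for PAG11 and -0.54 to 0.31 for PAG12 in the ED, where PAG2 ran from 0.42 to 0.96 with adjusted p from 0.0576 (without VE4) to 0.620. In IVP embryos alone, PAG8 between the tissues was -0.11. The interaction for PAG12 ran from -0.08 to 0.51. The cause of these changes was not tested.

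Counts over all genes moved more. Between IVP and IVV they were 561 in the EEM (1211 without the filter, 145 with XIST) and 998 in the ED (1512 with DESeq2, 1846 without the filter, 654 with XIST, 639 without VE29). Between the tissues there were 488 in IVP embryos alone. The interaction called 172, or 301 without the replicate block, 435 with DESeq2, 356 without the filter and as few as 101 with an embryo left out.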
